A study of Rattus norvegicus with 2 samples.

Results

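The genes described here encode enzymes and cholesterol carriers that make, activate or inactivate steroids inside tissues: Srd5a1, Star, Tspo, Hsd11b1, Hsd11b2, Cyp11a1, Cyp17a1, Cyp19a1, Hsd17b4 and Hsd17b10. They were taken by name, as every rat probe on both arrays whose gene name in the array files is one of these 10 symbols. The names gave 10 probes for 9 genes, out of 30367 rat probes and 15051 gene symbols with a counted probe. No probe carried the name Cyp19a1. Of the 9 genes, 8 were well above background on both arrays, and Cyp11a1 on the female array only.

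RNA came from the nucleus tractus solitarius (NTS), the brainstem nucleus where baroreceptor and other visceral afferents end, of Wistar Kyoto rats, a normotensive strain. One pool held RNA of 5 females and the other RNA of 5 males, all 9 weeks old and untreated as far as the labels say, with 100 ng from each rat. Each pool was hybridised to 1 single-colour Agilent array. Neither pool was measured again on a further array, so nothing could be tested, and the spread between rats is not seen in pools. The stage of the oestrous cycle is not given in the sources used here. All 7 neuron markers with a probe, and all 8 astrocyte and 8 oligodendrocyte markers, were well above background on both arrays, as the tissue label requires.

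Steroid synthesis starts when cholesterol is carried into mitochondria, a step that StAR (Star) drives and to which the outer membrane protein TSPO (Tspo) has been linked, and when the side-chain cleavage enzyme Cyp11a1 turns it into pregnenolone. Brain tissue can also work on steroids from the blood: 5α-reductase (Srd5a1) turns progesterone into the precursor of allopregnanolone, a modulator of GABA-A receptors, and aromatase (Cyp19a1) turns androgens into oestrogens. In rodents the 11β-hydroxysteroid dehydrogenases set the local level of corticosterone, which Hsd11b1 regenerates and Hsd11b2 inactivates. The rat NTS is known for a small group of neurons that carry Hsd11b2 together with the mineralocorticoid receptor and respond to aldosterone.

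Levels are log2 processed signals relative to the array's 75th percentile, and differences are female minus male on this log2 scale. The error given beside a difference is the spot SD, which is the root mean square SD of the female minus male difference among the spots of repeated probes of like brightness. It was 0.33 for probes over 64-fold below the 75th percentile, 0.15 at 16- to 64-fold below, 0.09 at 4- to 16-fold below and 0.069 above that. It covers the array surface only, and leaves out differences between rats and between labelling reactions. A probe's brightness also depends on its sequence, so levels of different genes are not set against each other. Every member probe had 1 spot on each array and none had an outlier flag.

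None of the 8 members measured on both arrays differed by 2-fold or more in either direction. Among all 15051 counted genes, 0.113% were higher in the female pool by that much and 0.399% were higher in the male pool, so a count of 0 among 8 genes is near the background. None of the 8 passed 1.5-fold either, against 0.89% of all genes on the female side and 1.53% on the male side. Of the 8 members, the female pool was higher for 4 and the male pool for 4, with a median difference of -0.0025, beside 45.5% of all counted genes higher in the female pool and a median of -0.015. Tspo, at -0.42, stood outside its spot SD by the most, Hsd11b2 was just beyond it at -0.079, and the other 6 lay within 1 spot SD.

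**Figure D1:**
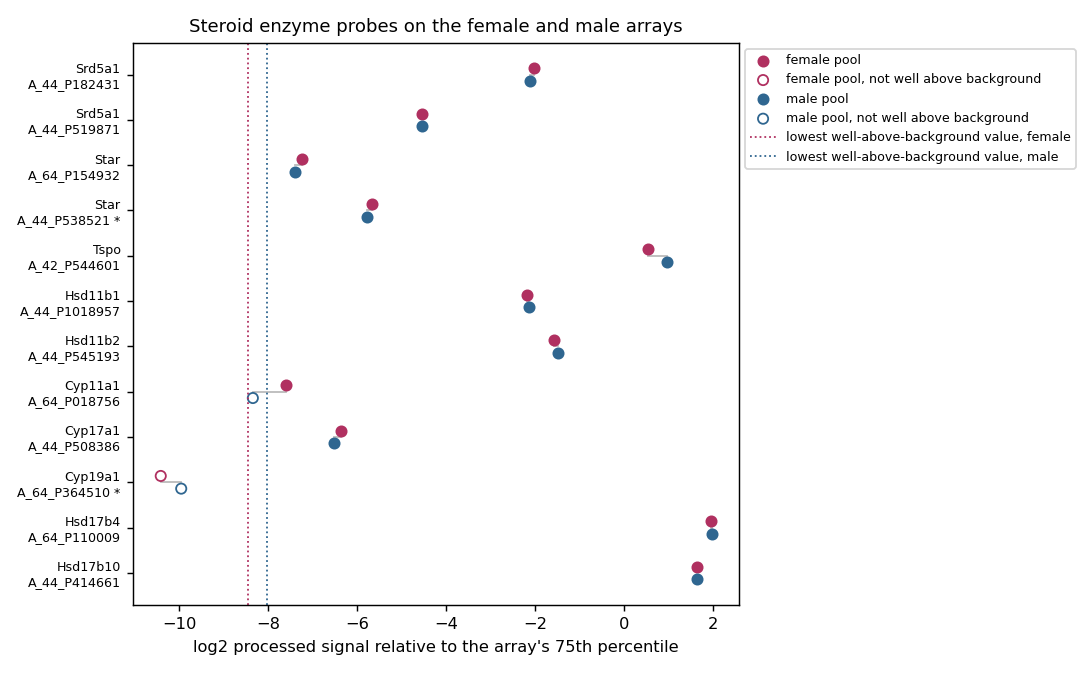
Level of each probe on the female array (red) and the male array (blue), as log2 processed signal relative to that array's 75th percentile, with 1 array per sex. Open circles were not well above background, dotted lines mark the lowest value well above background on each array (-8.46 female, -8.03 male), and an asterisk marks a probe outside the choice by name. The paired points nearly coincide except for Tspo, Cyp11a1 and the aromatase probe, which was below background on both arrays.

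Of the genes that bring cholesterol into mitochondria, Tspo was lower in the female pool and Star differed by less than the spot SD. Tspo encodes a cholesterol-binding protein of the outer mitochondrial membrane, rich in microglia and used as an imaging marker of their activation. Its probe lies on chromosome 7 from 121599117 to 121599176 in the rn4 build of the array files. It gave a processed signal of 4896 from the female pool, against 6660.5 from the male pool. The array software put the errors of these signals at 489.6 and 666.0. Its level was 0.53 in females, against 0.95 in males, a difference of -0.42 with a spot SD of 0.069, or 1.34-fold higher in the male pool. Of 7219 counted genes in the same brightness class, 112 (1.55%) differed at least as much in either direction. The 97 neighbouring spots within 5 rows and 5 columns had a median difference of -0.01. These signals were already detrended within each array, and around the 10 member probes this median ran only from -0.026 to 0.023. An error of the single Tspo spot itself was not tested.

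The direction for Tspo is relative to the other genes of the array. Scaling by the spike-in probes moved the median of all genes to 0.66 and Tspo to 0.25, which puts Tspo higher in the female pool on that scale and still below the median gene. Relative to the median of all counted genes Tspo was at -0.40 in the setting used here, and under the other 11 settings without spike-ins it lay between -0.42 and -0.38 relative to the array.

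Markers of cells that can carry Tspo, or that a dissection of this region can include, are given beside it, with the background that 54.5% of all counted genes were lower in the female pool. Microglia and macrophage markers were lower there in 7 of 10, with a median of -0.12, and astrocyte markers in 6 of 8, with a median of -0.072. The summed levels, in multiples of the 75th percentile, were 20.8 female and 21.7 male for microglia, and 28.8 female and 29.7 male for astrocytes. Meningeal and fibroblast markers were lower in females in 10 of 10 (median -0.37), with sums of 9.52 female and 15.1 male. Without Col1a2, the brightest, these sums were 4.59 female and 5.85 male. Choroid plexus markers were lower in 8 of 10, with a median of -0.22 and sums of 13.9 female and 16.2 male, most of it from Ttr, without which they were 0.712 female and 0.856 male. All 5 counted red blood cell markers were lower in females (median -0.55), with sums of 30.3 female and 40.5 male, or 2.21 female and 3.27 male without Hbb. The other direction was seen in oligodendrocyte markers, 6 of 8 higher in females (median 0.19) with sums of 25.8 female and 24.8 male, and in endothelial markers, 7 of 8 higher in females (median 0.13) with sums of 6.39 female and 5.67 male. Of these lists' genes with a probe, only the red cell gene Epb42 was not counted. Its probe was well above background on the female array only, and no direction is read from that. The haemoglobin genes Hba1 and Hba2 had no probe under those symbols. The part of these cells in the Tspo difference was not tested, and in bulk RNA fewer cells of a type and less RNA per cell cannot be told apart.

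Star, whose protein moves cholesterol to the inner mitochondrial membrane, was measured close to the limit of the arrays. Its named probe, on chromosome 16 from 70642580 to 70642639, gave 22.4 from the female pool, against 20.4 from the male pool, while the lowest signals well above background were 9.59 from the female pool, against 13.1 from the male pool. The difference was 0.16 with a spot SD of 0.33. A further Star probe, filed under a transcript identifier and therefore outside the choice by name, was spotted 10 times and offered a closer look. It lies on chromosome 16 from 70640879 to 70640938 and averaged 66.6 from the female pool, against 62.9 from the male pool. Its mean difference was 0.11, with an SD of 0.12 among its own spots, and 9 of 10 spots were brighter on the female array, over a range from -0.20 to 0.21. Both probes thus put Star slightly higher in the female pool. Each difference was less than 1 spot SD of single spots, which overstates the spot error of a mean over 10 spots. With normexp background correction, which added 50 to every signal and so compressed dim ones, the named probe turned to -0.097.

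Cyp11a1, the mitochondrial enzyme that makes pregnenolone from cholesterol, was well above background on the female array only. Its probe, on chromosome 8 from 61805170 to 61805229, gave 17.4 from the female pool, against 10.6 from the male pool. The array software put the errors of these signals at 2.95 and 3.37. The sequence is shown because this is the only member whose detection differed between the arrays. All 60 bases come from the array files, which place the probe on the plus strand of rn4, and are written 5′ to 3′ in lower case, as are those below:
Cyp11a1 probe A_64_P018756: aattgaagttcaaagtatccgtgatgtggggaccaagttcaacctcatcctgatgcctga
The female level of -7.61 was 1.35-fold above -8.03, the lowest level well above background on the male array. No minimum fold is read from this, because that limit differed between the arrays. It was a signal of 9.59 for the female pool, against 13.1 for the male pool, so the male signal of 10.6 lay above the female limit. Detection on a single array was not particular to Cyp11a1: 15702 genes had a probe above background on at least 1 array, against 15051 on both. The measured values differed by 0.74, against a spot SD of 0.33 for probes that were above background on both arrays. Negative control spots, of which there were 153, had a 95th percentile of 2.93 from the female pool, against 4.47 from the male pool, both below the Cyp11a1 signals. The highest single negative control reached 63.1 from the female pool, against 24.4 from the male pool, which is above them.

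The next group converts pregnenolone, progesterone and androgens further. Cyp17a1, the hydroxylase and lyase on the path to androgens, was dim and close between the pools. Its probe, on chromosome 1 from 251965532 to 251965591, gave 41.1 from the female pool, against 37.4 from the male pool, a difference of 0.16 with a spot SD of 0.33. The value turned to -0.051 with normexp background correction, which added 50 to every signal and so compressed dim ones. With a difference inside the spot SD, its direction was not settled by these spots. Of 1674 counted genes in the dimmest class, 61.8% differed by at least as much.

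Srd5a1 is the member with more than 1 named probe, which gives a check within the gene. The probes lie on the plus strand of chromosome 17, from 3854451 to 3854510 and from 3878645 to 3878704, and both carry the same RefSeq transcript in the array files. The sequence of the first is given here because these are the only named probes of a member that can be compared with each other:
Srd5a1 probe A_44_P519871: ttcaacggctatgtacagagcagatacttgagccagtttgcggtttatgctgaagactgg
This probe has 46.7% G and C. It gave 144 from the female pool, against 147 from the male pool, a difference of -0.0098 with a spot SD of 0.15. The second probe, A_44_P182431, has 40.0% G and C and gave 831 from the female pool, against 785 from the male pool, a difference of 0.11 with a spot SD of 0.09. The probes thus differed from each other by 0.12, with an SD of 0.18 for this contrast. The gene value, their median, was 0.05. Other enzymes of the same steps were also close between the pools: Srd5a2 differed by -0.079, Srd5a3 by -0.022 and Akr1c14, the rat 3α-hydroxysteroid dehydrogenase that completes allopregnanolone synthesis, by -0.14 over 9 spots. Akr1c14 was dim, with a spot SD of 0.33 for a single spot.

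Aromatase, the product of Cyp19a1, had no probe under its symbol. One probe whose accession belongs to Cyp19a1 is filed under a sequence accession in place of a gene name and lies outside the choice by name. It gave 2.47 from the female pool, against 3.45 from the male pool, and was not well above background on either. The array software put the errors of these signals at 2.46 and 3.43. No direction is given for it, and this single probe was below the range in which the arrays could show a difference.

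**Figure D2:**
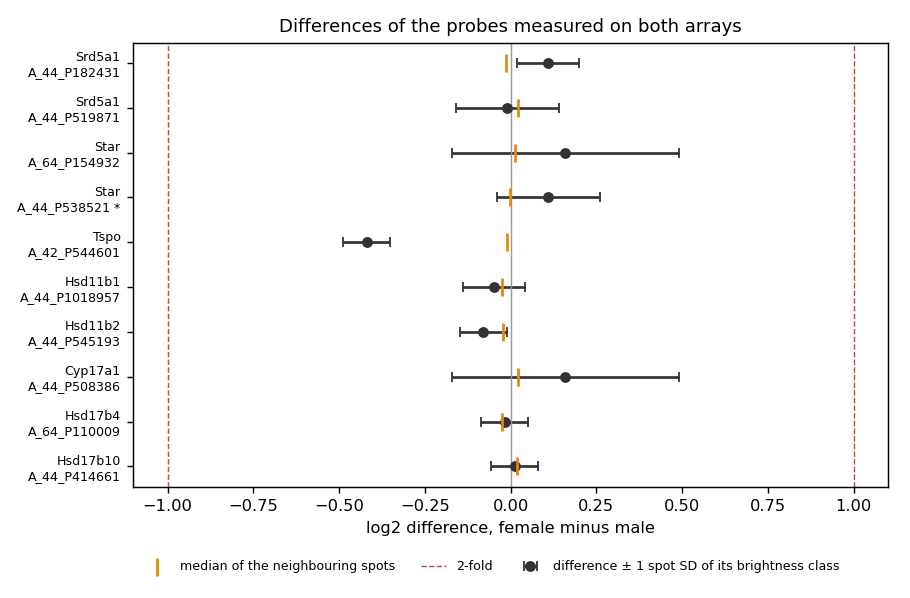
Difference of each probe measured on both arrays, female minus male on the log2 scale, with bars of 1 spot SD of its brightness class. Orange ticks show the median difference of the neighbouring spots, dashed lines mark 2-fold, and an asterisk marks the Star probe outside the choice by name. Tspo at -0.42 is the point farthest from 0, and all points lie well inside the 2-fold lines.

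The pair of enzymes that set local corticosterone differed little between the pools. Hsd11b1, which regenerates corticosterone from its inert keto form, gave 742 from the female pool, against 781 from the male pool from a probe on chromosome 13 at 109063624 to 109063683. The difference was -0.048 with a spot SD of 0.09. Hsd11b2, which inactivates corticosterone and so leaves the mineralocorticoid receptor to aldosterone, gave 1133 from the female pool, against 1218 from the male pool from a probe on chromosome 19 at 35341413 to 35341472. Its difference was -0.079 with a spot SD of 0.069, and 43.7% of 7219 counted genes of like brightness differed at least as much.

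Because both enzymes were read on the same arrays, their relative change does not depend on a scaling by 1 factor per array. The difference for Hsd11b1 minus that for Hsd11b2 was 0.031, with an SD of 0.11 from the spots, so the balance of the 2 messages differed by less than this error. With normexp background correction the contrast was 0.075, still below it. Of the receptors that these enzymes serve, the glucocorticoid receptor gene Nr3c1 differed by -0.042, from -0.11 to 0.023 over its probes. The probes of the mineralocorticoid receptor gene Nr3c2 disagreed, at 0.013 and 0.87. Foxp2, a transcription factor found in the aldosterone-sensitive NTS neurons, was at 0.25 with a spot SD of 0.15. H6pd, the enzyme that supplies Hsd11b1 with its cofactor in the endoplasmic reticulum, differed by -0.06, the median of 2 probes at -0.07 and -0.051.

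Both 17β-hydroxysteroid dehydrogenases were bright and gave the closest values of all members. Hsd17b4 is a peroxisomal enzyme that oxidises oestradiol and also shortens very long fatty acids. It gave 13001 from the female pool, against 13391 from the male pool, a difference of -0.017 with a spot SD of 0.069. Its probe lies on chromosome 18 from 45251361 to 45251420. Hsd17b10 is a mitochondrial enzyme that can oxidise neuroactive steroids and is also part of mitochondrial RNase P. Its gene lies on chromosome X, where sex differences in dose can arise, and for that reason its probe is shown:
Hsd17b10 probe A_44_P414661: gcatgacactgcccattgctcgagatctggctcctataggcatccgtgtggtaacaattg
This probe, on the plus strand from 41491297 to 41491356, gave 10518 from the female pool, against 10619 from the male pool, a difference of 0.012 with a spot SD of 0.069. The other 479 counted X-linked genes had a median difference of -0.02, with quartiles at -0.12 and 0.09, so Hsd17b10 lay within the middle of the X-linked genes. The signs of both values were not stable: Hsd17b4 turned positive at 0.018 with median scaling, and Hsd17b10 turned to -0.0084 relative to its neighbouring spots.

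**Figure D3:**
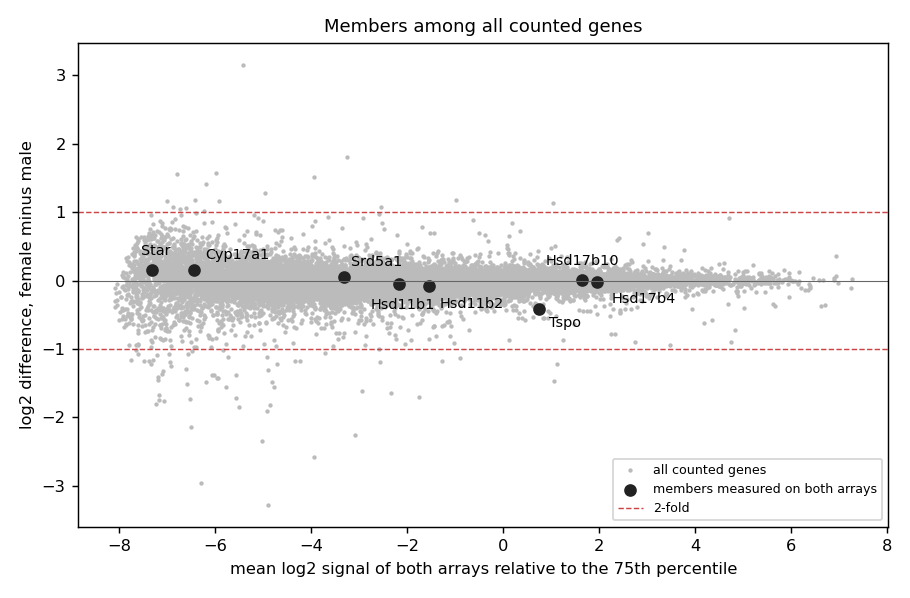
Difference between the pools (vertical axis, female minus male, log2) against mean level (horizontal axis, log2 relative to the 75th percentile) for all 15051 counted genes in grey and the 8 members measured on both arrays in black. Dashed lines mark 2-fold. The grey cloud widens towards dim genes, where Star and Cyp17a1 lie inside it, and Tspo lies near its lower edge among bright genes.

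The wider steroid pathway was close between the pools too. Of the 9 genes for cholesterol delivery and TSPO partners, the female pool was higher for 3 and the male pool for 6, with a median of -0.027 and a range from -0.20 to 0.11. Dbi, which encodes the peptide ligand of TSPO, differed by -0.17 with a spot SD of 0.069, the same direction as Tspo and a smaller size. Tspo2, the paralogue known from red cell precursors, gave -0.20 with a spot SD of 0.15, and Acbd3, a TSPO-binding protein, gave -0.012 and 0.23 over its probes. Stard6 gave 0.084. The electron donors and cofactor enzymes, 6 genes, had a median of -0.039, with Fdx1, the ferredoxin that feeds Cyp11a1, at -0.038 over 10 spots and its reductase Fdxr at -0.014. Por, which feeds Cyp17a1 and aromatase, gave -0.045.

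Of 20 other oxidases and hydroxysteroid dehydrogenases, 13 were measured on both arrays, with the female pool higher for 5 and the male pool for 8, a median of -0.013 and a range from -0.17 to 0.16. Hsd17b12 gave -0.17, Hsd17b3, which makes testosterone in the testis, 0.16, and Hsd17b13 0.13. Cyp11b3 was at 0.16, from -0.087 to 0.40 over its probes. Its near-identical relatives are Cyp11b1 and Cyp11b2, the last enzymes of corticosterone and aldosterone synthesis. Cyp11b1 was well above background on the female array only, and Cyp11b2 on neither array. Hsd3b1, which turns pregnenolone into progesterone, was dim, at -0.023 with a spot SD of 0.33. The sulfation list had a median of -0.091 over 4 genes, with Sult2b1 at -0.25, Sult1a1 at -0.13, the steroid sulfatase gene Sts at -0.051 and Sult4a1 at 0.039. None of the genes in these lists passed 2-fold in either direction. Of all 15051 counted genes, 0.113% passed it on the female side and 0.399% on the male side, so this is near the background.

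**Figure D4:**
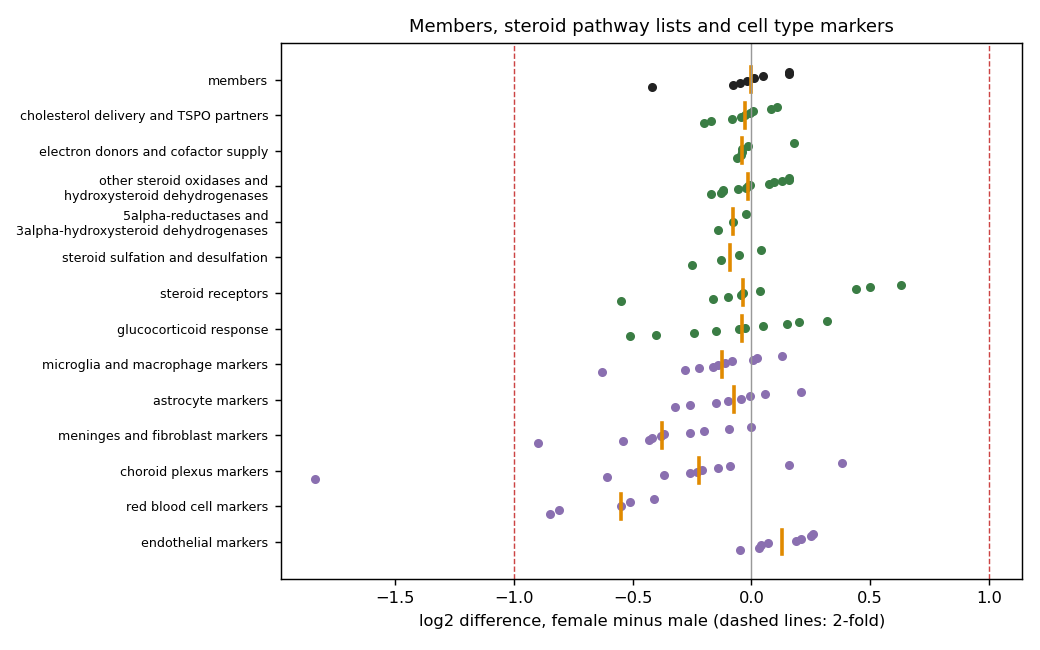
Differences of single genes, female minus male on the log2 scale, for the members (black), steroid pathway lists (green) and markers of cell types (purple), with the list median as an orange bar and dashed lines at 2-fold. The members and the enzyme lists lie close to 0, steroid receptors and glucocorticoid-responsive genes spread wider, and red cell and meningeal markers lie on the male side.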

How the data were processed

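Each pool was measured on 1 single-colour Cy3 Agilent array. Per the file headers, the deposited intensity values come from Agilent Feature Extraction 10.7.3.1, while the submitters' processing notes give version 9.1. The processed signal intensity was background-subtracted and detrended within each array by the authors' software, per the file headers, and not scaled between arrays. From its log2, that of the 75th percentile of all 42877 rat spots on the array was subtracted (3380 female, 3441 male). The 430 flagged spots were left out, spots of a probe averaged, and probes well above background on both arrays counted (24532). Well above background were 87.9% of rat spots on the female and 85.5% on the male array, and none was saturated. The number of arrays limits the precision.

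A deposited value table held the same intensity values times 1 factor per array, on a linear scale and not centred (medians 27.3 female, 28.0 male). Gene symbols came from the GRCr8 reference table by accession for 18733 probes, by another accession for 1034 and from the files for 2020; 8557 had none, and 23 had every spot flagged. Several probes of a gene were summarised by their median.

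Members and gene lists were chosen with earlier results of these data known. All member probes are named, and in other lists up to 4 genes with the largest differences and a few fixed ones; genes of marker lists are given as counts. A few genes of these lists are not reported here. No test was possible with 1 array per sex, and 2-fold was the threshold. Steps were tested on simulated data and used Python 3.11.15, R 4.3.3 and limma 3.58.1.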

Additional observations from a re-analysis of the deposited data

How the results depend on the processing

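No paired analysis was possible because each sex has 1 array. Under all 11 alternatives to the scaling, background correction, filters, probe choice and threshold, and under leaving out 4 of 20 bands of array rows with many male-bright dim spots, which was added after seeing the data, no member passed 2-fold, or 1.5-fold where that was the threshold; 3 of 10 member probes (Srd5a1, Hsd11b1, Cyp17a1) lay in those bands. Scaling by spike-ins shifted every value towards the female side: 549 genes passed 2-fold there against 15 on the male side, the member median was 0.67, and list medians were 0.64 for cholesterol delivery, 0.63 for electron donors, 0.66 for other oxidases, 0.59 for 5α-reductases, 0.58 for sulfation, 0.64 for receptors and 0.63 for glucocorticoid response. Counts of all genes past 2-fold, 17 female and 60 male, became 5 and 17 with normexp, 199 and 139 with probes above background on at least 1 array, 411 and 253 with no filter, and 134 and 231 at 1.5-fold; 35 passed on the male side outside the bands. The cause was not tested. Dimness limits Star, Cyp17a1 and Cyp11a1.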

Other observations

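Steroid receptors and glucocorticoid-responsive genes varied more between the pools than the enzymes did. None passed 2-fold, near the background of 0.113% of all counted genes on the female side and 0.399% on the male side. Of 9 receptor genes measured on both arrays, the female pool was higher for 4 and the male pool for 5, from -0.55 for Gper1 to 0.63 for Pgr, with a median of -0.034. Pgrmc1, a membrane-associated progesterone-binding protein, gave -0.10, from -0.19 to 0.039 over its probes. Esr1 was not counted.

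Of 10 genes known to respond to glucocorticoids, the female pool was higher for 4 and the male pool for 6, with a median of -0.038. Pdk4, a mitochondrial kinase that restrains pyruvate oxidation, differed by -0.51 with a spot SD of 0.33, and the clock gene Per1 by -0.40 with a spot SD of 0.15. Zbtb16 went the other way at 0.32 with a spot SD of 0.15. Ddit4 gave -0.24, the median of 2 probes at -0.25 and -0.24, with a spot SD of 0.069 for a single spot. Tsc22d3, which encodes a glucocorticoid-induced leucine zipper protein, was at 0.20 and Fkbp5, a co-chaperone of the glucocorticoid receptor, at -0.15, both with a spot SD of 0.069. These genes did not share a direction.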
